A study of Macaca mulatta with 8 samples.

Results

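The apoptosis regulators described here are the genes of the BCL2 family, the caspases, the inhibitor of apoptosis (IAP) family, the TNFRSF10 death receptors and the factors that act beside them at mitochondria. They were chosen by gene symbol from the platform annotation of a rhesus macaque expression array. This found 38 genes, of 12993 genes named on the array, with 74 of its 52766 probe sets (platform controls left out). Of these, 49 probe sets for 28 genes were bright enough to be tested, and the remaining 10 genes were not. Some other genes with such roles were not analysed here.

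Apoptosis is a programme of cell death that eggs can enter when they age, are damaged or are not fertilized. In its mitochondrial arm, proteins with only a BH3 domain engage the survival proteins of the BCL2 family and free the pore formers BAX and BAK1 to open the outer mitochondrial membrane. Factors that leave the mitochondria then help APAF1 to assemble the apoptosome and activate initiator caspases, which cleave executioner caspases, while IAP proteins hold caspases in check. Death receptors reach the same executioners from the cell surface through the adaptor FADD and CASP8.

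The RNA came from rhesus macaque oocytes arrested at metaphase II, when maturation is complete. Oocytes matured in culture (in vitro) were measured on 4 arrays, and oocytes matured inside the animal (in vivo) on another 4. Each array carried RNA of a pool of 4 oocytes, amplified through 2 rounds, and expression is given as linear MAS5 signal. The labels call the arrays biological replicates without naming the animals behind each pool, and the spread that p-values rest on is that between pools. In such pools, fewer oocytes carrying a transcript and less of it per oocyte cannot be told apart.

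Markers of the oocyte were present, with 10 of 11 measured markers above background on all 8 arrays. Background on each array was the 95th percentile among control probe sets whose sequences were taken as absent from the samples, with signals of at most 52.7. It lay between 15.7 and 27.0. Markers of the granulosa and cumulus cells that surround the egg were measured too, with 11 of 18 above background on all 8 arrays and 1, INHBB, on none. Their summed signal ran from 18504 to 25396 on the in vitro arrays and from 18186 to 25186 on the in vivo arrays, and 2 of them, INHBA and STAR, rose in vitro. SERPINE2 alone had 10342 to 15867 in vitro and 11427 to 17018 in vivo. The sum thus mainly follows this gene and does not show whether the groups held equal amounts of these cells. None of the 9 measured blood markers was above background on all 8 arrays, and their summed signal was 104 to 219 in vitro against 226 to 300 in vivo. The 9 markers of theca, stroma and endothelium summed to 565 to 1159 in vitro and 483 to 724 in vivo. The part of these cells in the values below was not tested. The ratio of the 3' to the 5' control probe sets of EEF1A1, a measure of how far amplification reached along a transcript, was 3.59 to 4.91 on the in vitro arrays. It was 7.70 and 12.8 on in vivo replicates 2 and 4 and 2.70 and 2.72 on in vivo replicates 1 and 3. The beta-actin ratio was 51.1, 88.2, 107.6 and 69.4 on the in vitro arrays and 75.3, 150, 51.2 and 107.7 on the in vivo arrays. In vivo replicates 1, 2 and 4 correlated more closely with the in vitro arrays (mean Pearson r of 0.919, 0.947 and 0.932) than with their own group (0.916, 0.937 and 0.919).

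The comparison asks whether oocytes matured in culture carry other levels of these transcripts than oocytes matured in the animal. Of 49 tested probe sets, 1 was lower in vitro, 0 were higher and 48 did not pass the limma adjusted p threshold of 0.05. Over all 26383 tested probe sets, 0.144% passed in either direction, 0.0417% as lower and 0.102% as higher in vitro. The gene that fell was AVEN, which encodes an inhibitor of apoptosis that binds APAF1 and BCL2L1, and it stands in the rule by its own symbol. Members were chosen with earlier results of these data known, so this call is not read as a trait of the regulators. At an unadjusted limma p under 0.05 there were 5 of 49 probe sets (10.2%), all lower in vitro. The share over all tested probe sets was also 10.2%, with 5.53% lower and 4.7% higher in vitro. The groups did not overlap at 2 of the 49 (4.08%), AVEN and ENDOG, both lower in vitro, against 6.28% of all tested probe sets (3.11% lower in vitro). With 1 probe set for each gene, the median log2 fold change, in vitro minus in vivo, was -0.04 over the 28 genes and -0.02 over all 9578 tested named genes. It was negative in 17 of the 28 genes (60.7%), against 51.9% of all tested named genes.

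**Figure D1:**
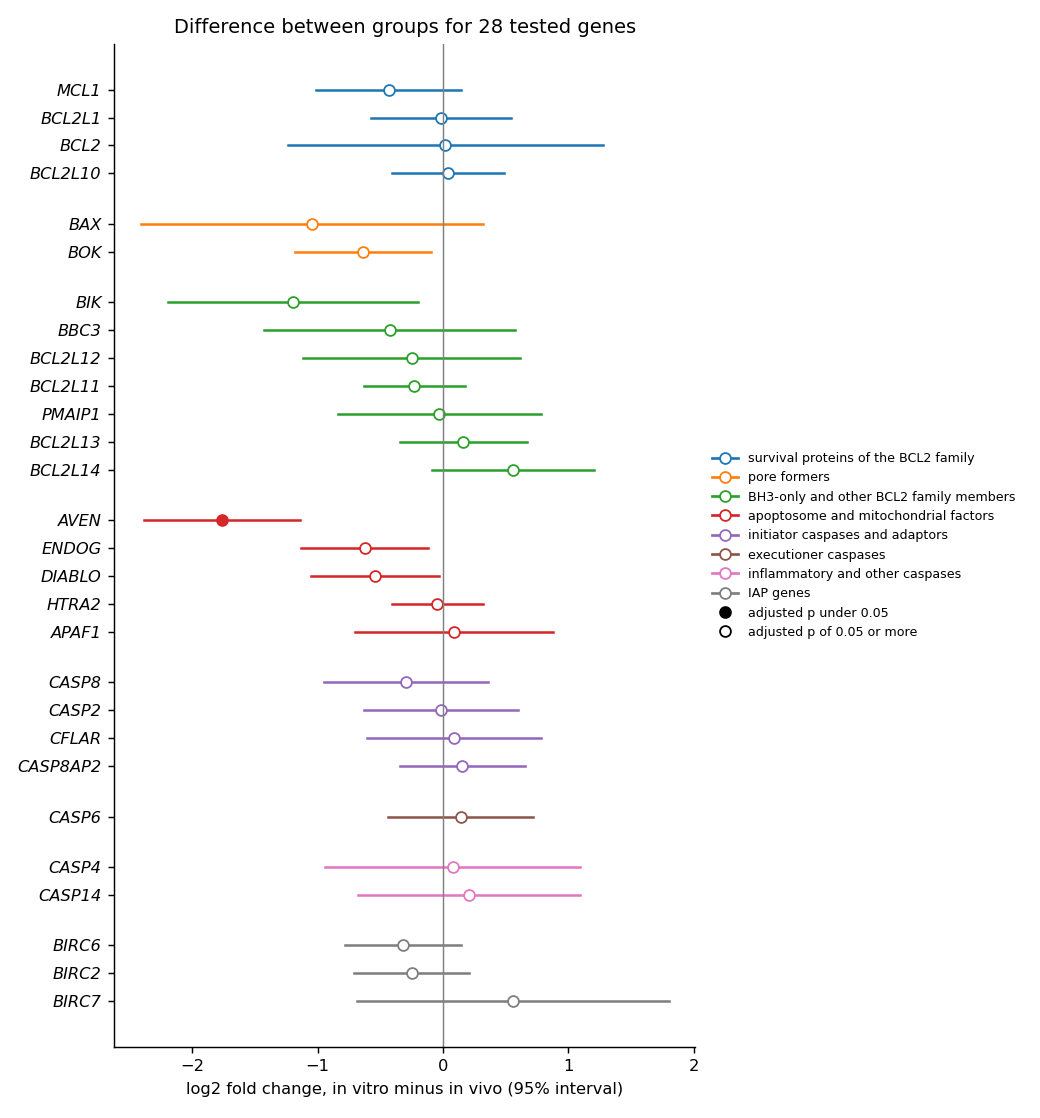
Log2 fold change (in vitro minus in vivo) of the 28 tested genes, 1 probe set a gene, with 95% intervals from the limma fit, grouped by role from top to bottom. The filled point is AVEN, the only one of the 28 past the adjusted threshold, and the intervals of ENDOG, DIABLO, BIK and BOK also lie below 0 before adjustment.

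Among factors of the apoptosome and of mitochondria, AVEN had signals of 767, 951, 569.5 and 1041 on the in vitro arrays, against 1753, 2506, 5342.5 and 2505 on the in vivo arrays. Every in vitro array lay below every in vivo array, and in vivo replicate 3 was the highest of all 8. The means were 832 ± 209 in vitro and 3027 ± 1584 in vivo (SD, n = 4 each). On the scale of the fit, log2(signal + 8.2), the log2 fold change was -1.76 ± 0.29 (SE), or 3.39-fold lower in vitro, with a 95% interval of -2.39 to -1.14 and a limma adjusted p of 0.0278. AVEN ranked 26 among the 26383 probe sets by p. With an array left out, the log2 fold change lay between -1.98 and -1.45. The adjusted p was then 0.139, 0.0888, 0.121 and 0.0594 without in vitro replicates 1, 2, 3 and 4 and 0.0727 without in vivo replicate 2, so that the call ended in these 5 fits of 7 arrays, and it was 0.00774, 0.0185 and 0.0233 without in vivo replicates 1, 3 and 4. It was 0.222 in a fit without the intensity trend. With the EEF1A1 ratio as a covariate, added after seeing the data, the log2 fold change was -1.81 (limma adjusted p = 0.00647). The summed blood markers did not overlap between the groups, with 104 to 219 in vitro and 226 to 300 in vivo. Of these 9 dim markers, 5 were bright enough to be tested, and none of them passed the limma adjusted threshold. Their log2 fold changes ran from -1.02 to 0.15. CD68 had 119.1 on in vivo replicate 1, where AVEN was lowest of the in vivo arrays, and HBB had 164.9 on in vivo replicate 2. The part of the blood markers in the AVEN values was not tested. AVEN has 1 probe set on the array, so no other probe set bears on its value. CHRM5, the next protein-coding gene after AVEN in the RefSeq annotation of T2T-MMU8v2.0, was not above background on any array (at most 7.1 in vitro and 10.8 in vivo), and EMC7, the one after it, had -0.34 on the log2 scale (limma adjusted p = 0.656).

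**Figure D2:**
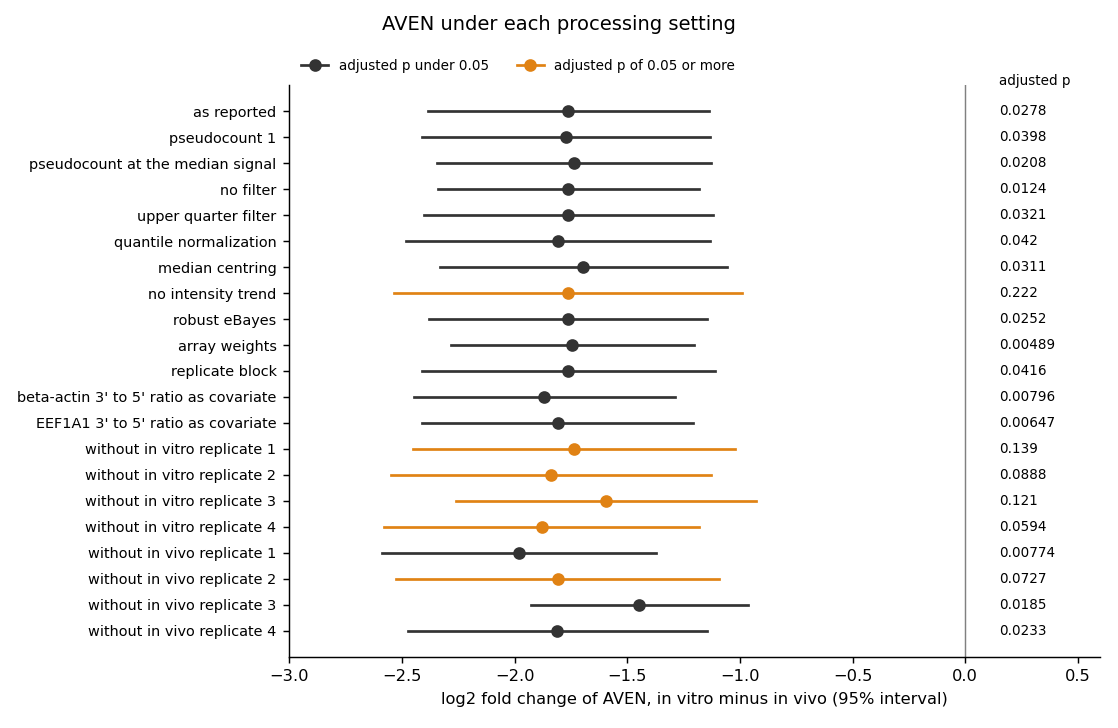
Log2 fold change of AVEN (in vitro minus in vivo) with its 95% interval under each processing setting, and the limma adjusted p at the right. All intervals lie below 0, and the orange ones, at an adjusted p of 0.05 or more, are the fits without each in vitro array, without in vivo replicate 2 and without the intensity trend.

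ENDOG encodes endonuclease G, a mitochondrial nuclease that can cut nuclear DNA after its release. It had signals of 117, 138, 131 and 84.3 in vitro, against 215, 194.5, 186 and 144 in vivo. All in vitro arrays were below all in vivo arrays, with a gap of only a few units between in vitro replicate 2 and in vivo replicate 4. Its log2 fold change was -0.63 ± 0.24 (SE) and did not pass (limma adjusted p = 0.39). DIABLO, whose product leaves mitochondria and binds IAP proteins, had 508, 556, 535 and 527 in vitro, against 714, 700.2, 1327 and 548 in vivo. The in vitro arrays lay within a narrow band while in vivo replicate 3 stood high and in vivo replicate 4 fell inside the in vitro range. Its log2 fold change was -0.54 (limma adjusted p = 0.458), and -0.29 without in vivo replicate 3. HTRA2, a mitochondrial protease that also antagonizes IAP proteins, had 603 ± 55.1 in vitro and 621 ± 27.2 in vivo, with a log2 fold change of -0.05 (95% interval -0.41 to 0.32). The other 2 HTRA2 probe sets had -0.16 and 0.14. APAF1, the scaffold of the apoptosome, was dim at its single tested probe set, with 43.1, 64.5, 23.9 and 69.7 in vitro, against 28.6, 39.1, 71.9 and 44.3 in vivo. The ranges of the groups overlapped nearly in full, and the log2 fold change of APAF1 was 0.09 with an interval of -0.70 to 0.88, which leaves changes of either sign possible.

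**Figure D3:**
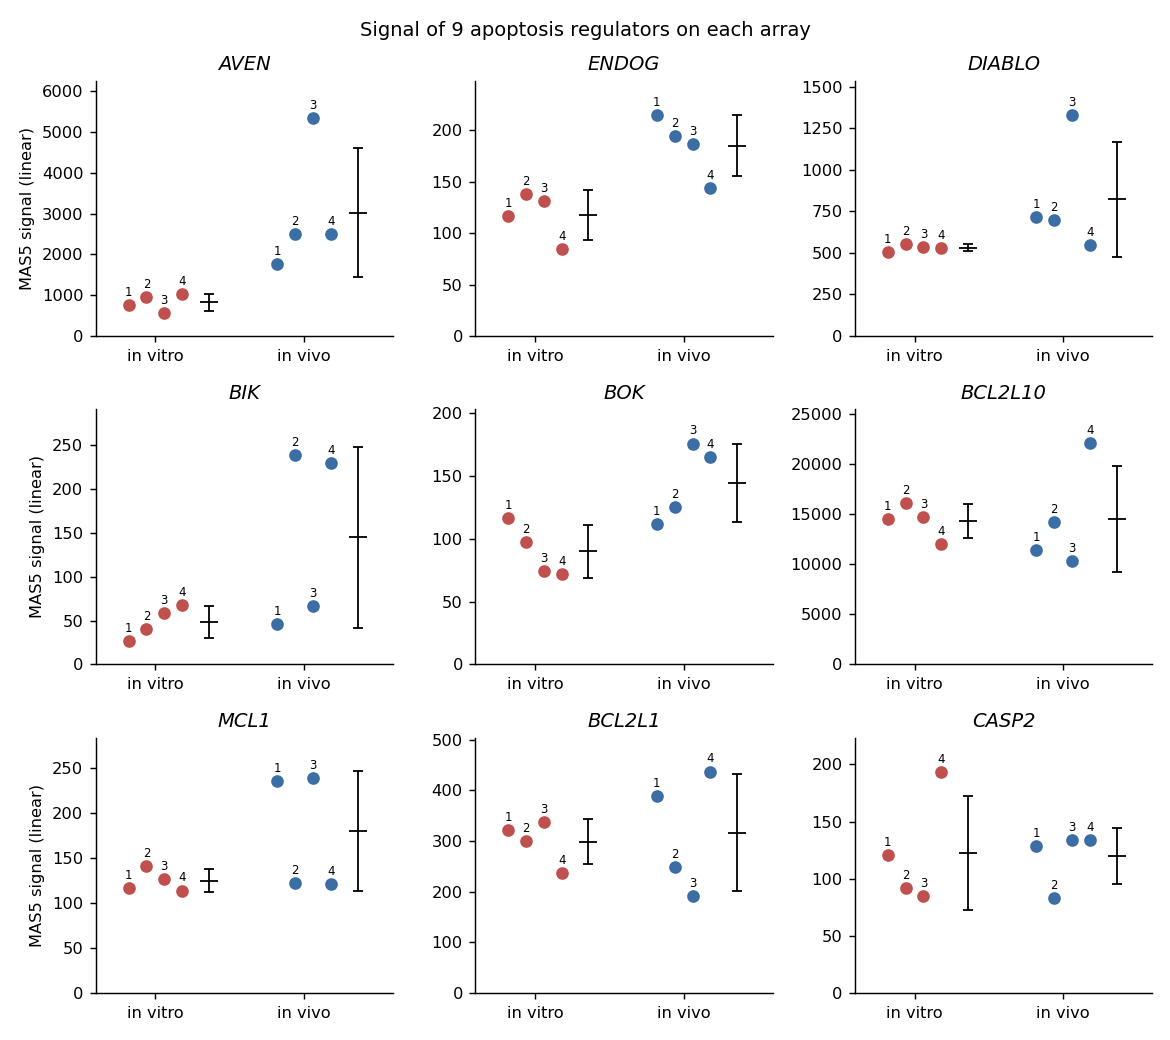
MAS5 signal (linear axis from 0) of 9 genes on each array, in vitro left and in vivo right, numbered by replicate, with the mean and SD of each group in black. AVEN and ENDOG do not overlap between groups. BIK is high on in vivo replicates 2 and 4, and MCL1 on in vivo replicates 1 and 3.

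Transcripts of the survival proteins of the BCL2 family did not pass the test at any of 8 tested probe sets. BCL2L10, a member of the family abundant in eggs, had 14504.5, 16086, 14705 and 12031 in vitro, against 11423.5, 14210.2, 10299 and 22076 in vivo. The in vitro arrays lay inside the in vivo range, whose top was in vivo replicate 4. Its log2 fold change was 0.04 ± 0.21 (SE), with a 95% interval of -0.41 to 0.49, and 0.26 without in vivo replicate 4. The other 2 probe sets of BCL2L10 had -0.02 and 0.17. BCL2L1, which encodes BCL-XL, had 322, 299, 337 and 237 in vitro, against 389, 248, 191 and 437 in vivo. In vivo replicates 1 and 4 were above, and in vivo replicate 3 below, all in vitro arrays, and the log2 fold change was -0.02 (95% interval -0.58 to 0.54). A second BCL2L1 probe set had -0.05 at 63.1 ± 5.51 in vitro and 65.7 ± 7.12 in vivo, and the remaining 2 were too dim to be tested.

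MCL1, a short-lived survival protein, had 117, 142, 127 and 114 in vitro, against 236, 123, 239 and 121 in vivo at its brighter probe set. In vivo replicates 1 and 3 were above every in vitro array, and in vivo replicates 2 and 4, the arrays with the high EEF1A1 ratios, were within the in vitro range. With the ratio as a covariate the log2 fold change was -0.57 (limma adjusted p = 0.235), and without the covariate it was -0.43 (limma adjusted p = 0.616). With the beta-actin ratio as a covariate it was -0.53 (limma adjusted p = 0.45). The part of amplification in the MCL1 values was not tested. A second MCL1 probe set had -0.06. BCL2, the founding member of the family, was near background at 31.4 ± 19.3 in vitro and 35.6 ± 26.4 in vivo with a log2 fold change of 0.02 (95% interval -1.24 to 1.28) and was above background on 3 arrays of each group.

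The pore formers did not pass either, and the values of BAX rested on 1 array. BAX, which forms pores in the outer mitochondrial membrane, had 116, 107, 216 and 92.8 in vitro, against 171, 1788, 125 and 130.1 in vivo at its representative probe set. A BAX probe set whose identifier shares the same stem had 94.3, 101, 189.7 and 144.5 in vitro, against 105, 5595, 71.3 and 63.7 in vivo. The last BAX probe set had 31.7, 7.8, 44.8 and 7.3 in vitro, against 9.1, 370.4, 8.8 and 25.4 in vivo. At all 3, in vivo replicate 2 was the highest of the 8 arrays, by 8.28, 29.5 and 8.27 times the next array, and the other in vivo arrays lay near or within the in vitro range. The log2 fold changes of -1.05, -0.86 and -0.71 had limma adjusted p-values of 0.604, 0.811 and 0.807. Without in vivo replicate 2 the first became -0.15 and the second turned to 0.65 (limma adjusted p = 0.9 and 0.506), while the last was then too dim to be tested. The values of these other 2 probe sets are shown because of that array, a choice made after seeing them.

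On in vivo replicate 2, 19 of 26383 tested probe sets (0.072%) exceeded the highest of the other 7 arrays by more than 1 on the log2 scale. That number was 7 to 15 on the in vitro arrays and 147, 288 and 52 on in vivo replicates 1, 3 and 4. The 7 with the largest excess on in vivo replicate 2 held the 3 BAX probe sets, 3 of the 5 probe sets of USP14, which encodes a deubiquitinase of the proteasome, and 1 of 59 probe sets whose identifiers begin with RPTR, the platform's prefix for reporter sequences. The brightest USP14 probe set had 2645 on in vivo replicate 2 and between 7.3 and 27.3 on the other 7 arrays, and the RPTR probe set had 2511 there and between 1.1 and 321 on the others. The excess of these 7 was between 2.74 and 6.22 on the log2 scale, and the next probe set had 1.29. Whether the BAX signal of in vivo replicate 2 came from transcripts of the oocytes or from other material on that array was not tested. FTL and NUCB1 are neighbours of BAX in the annotation. FTL had 1039 on in vivo replicate 2 and between 783 and 1404 on the other 7 arrays, the brighter NUCB1 probe set had 179.6 there and between 74.9 and 194.9 on the others, and the dimmer one had 4.9 there and between 23.1 and 84.9 on the others.

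**Figure D4:**
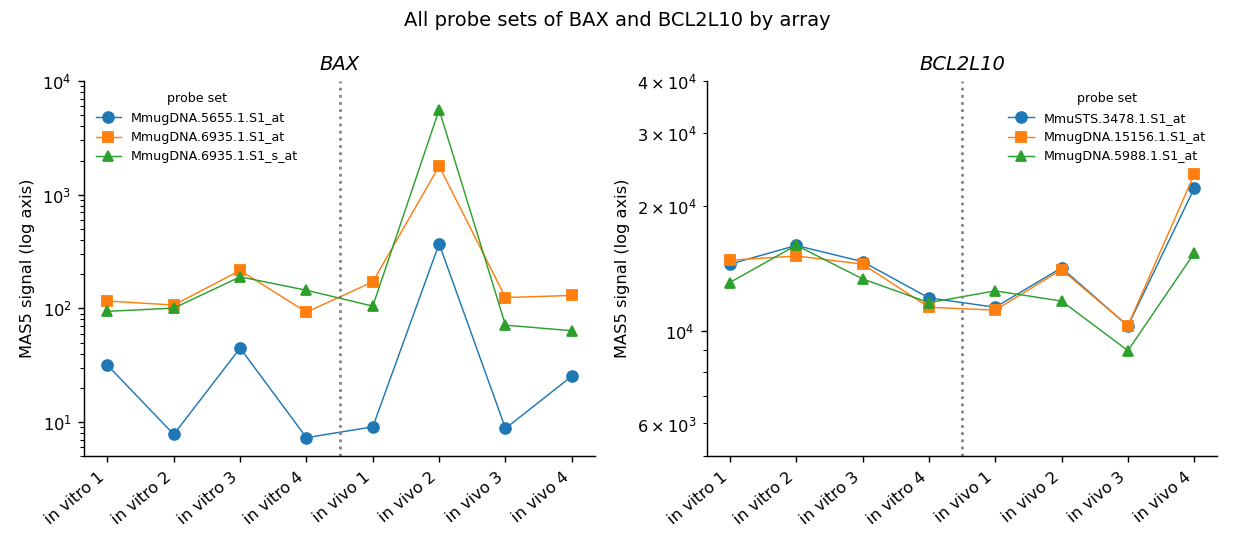
MAS5 signal (log axes) of the 3 probe sets each of BAX and BCL2L10 on the 8 arrays, in vitro left of the dotted line. The BAX probe sets share a peak on in vivo replicate 2, and the BCL2L10 probe sets are highest on in vitro replicate 2 or in vivo replicate 4.

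BOK, a relative of BAX and BAK1, had 116, 97.2, 74.6 and 71.9 in vitro, against 111.5, 126, 176 and 165 in vivo. The groups overlapped at in vitro replicate 1 and in vivo replicate 1, and the other 3 in vitro arrays lay below all in vivo arrays. Its log2 fold change was -0.64 ± 0.25 (SE) at an unadjusted limma p of 0.0251 and an adjusted p of 0.41, and the second BOK probe set had -0.47. BAK1 was too dim to be tested, above background on 2 in vitro arrays and on no in vivo array, with signals up to 29.2 in vitro and 7.0 in vivo.

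Of 7 tested genes for BH3-only proteins and other BCL2 relatives, none passed the limma adjusted threshold and 1, BIK, had an unadjusted p under 0.05. BIK, a BH3-only protein of the endoplasmic reticulum, had 26.7, 40.1, 58.4 and 68.2 in vitro, against 45.7, 238, 66.6 and 229.7 in vivo. In vivo replicates 2 and 4 were well above the highest in vitro array, while in vivo replicates 1 and 3 lay within the in vitro range. The log2 fold change was -1.20 ± 0.47 (SE; limma adjusted p = 0.4), and -0.87 and -0.88 without in vivo replicates 2 and 4. In vivo replicates 2 and 4 are also the arrays with the high EEF1A1 ratios. With that ratio as a covariate, added after seeing the data, the log2 fold change of BIK was -0.90 (limma adjusted p = 0.2). It was -0.94 with the beta-actin ratio as a covariate (limma adjusted p = 0.339). The part of amplification in the BIK values was not tested.

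BCL2L11, which encodes BIM, had 5 tested probe sets with log2 fold changes from -0.59 to 0.25, of which the brightest ran from 262 to 309 in vitro and from 301 to 369 in vivo. At that probe set the log2 fold change was -0.23 (limma adjusted p = 0.718). BBC3, which encodes PUMA, a target of p53, had 68.6 ± 34.0 in vitro and 95.4 ± 48.0 in vivo and a log2 fold change of -0.43 (95% interval -1.43 to 0.57), which was -0.85 without in vivo replicate 3 and 0.002 without in vitro replicate 4. PMAIP1, which encodes NOXA and is likewise induced by p53, was close to background at 26.3 ± 9.64 in vitro and 26.7 ± 7.27 in vivo, with log2 fold changes of -0.03 and 0.22 at its 2 probe sets. BCL2L13, a protein of the outer mitochondrial membrane, had 1899 ± 187 in vitro and 1795 ± 782 in vivo and a log2 fold change of 0.16, and its 2 dimmer probe sets had -0.55 and -0.40. BCL2L12 had 33.5 ± 7.55 in vitro and 46.4 ± 27.2 in vivo, with a log2 fold change of -0.25, which was -0.58 with in vivo replicate 3 left out and 0.02 with in vivo replicate 4 left out. BCL2L14 ran from 39.8 to 79.6 in vitro and from 34.7 to 46.1 in vivo, and 3 in vitro arrays exceeded all in vivo arrays. Its log2 fold change of 0.56 did not pass (limma adjusted p = 0.557). BCL2L15 was not above background on any array.

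The caspases and their adaptors gave no call in 7 tested genes. CASP2, an initiator caspase studied in the death of mouse oocytes, had 120.4, 92.1, 84.6 and 193 in vitro, against 129, 83.5, 134 and 134 in vivo. In vitro replicate 4 was the highest of the 8 arrays, the lowest arrays of both groups were nearly level, and the log2 fold change was -0.02 (95% interval -0.63 to 0.60). A second CASP2 probe set had -0.26. CASP8, the initiator downstream of death receptors, had 42.1, 43.0, 36.1 and 26.3 in vitro, against 46.6, 54.9, 45.0 and 40.4 in vivo. In vivo replicates 1, 2 and 3 were above every in vitro array, and in vivo replicate 4 was not. The log2 fold change of CASP8 was -0.30 (95% interval -0.95 to 0.36), and its second probe set was below the limit for testing. CFLAR, a catalytically inactive relative that restrains CASP8, was measured at 1 of 4 probe sets, with 87.6, 51.8, 82.0 and 59.4 in vitro, against 67.5, 55.3, 113 and 39.1 in vivo. The in vivo arrays spanned the whole in vitro range, and the log2 fold change of CFLAR was 0.09. CASP8AP2, which binds CASP8 and also acts in histone gene expression, had 175 ± 40.1 in vitro and 154 ± 19.3 in vivo, with a log2 fold change of 0.15.

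CASP6, an executioner caspase, had 73.4, 66.8, 52.6 and 72.4 in vitro, against 58.3, 54.2, 48.9 and 77.6 in vivo, with a log2 fold change of 0.14 and a 95% interval of -0.44 to 0.72. CASP4, an inflammatory caspase that senses lipopolysaccharide, was near background at 27.7 ± 10.8 in vitro and 28.4 ± 15.7 in vivo, and CASP14, a caspase of the epidermis, at 30.0 ± 8.93 in vitro and 26.5 ± 13.6 in vivo. Their log2 fold changes were 0.08 and 0.21. CASP5, CASP10, CASP12 and CASP16 were too dim to be tested, with at most 49.1 on any array, and CASP16 was above background on none.

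Of the IAP genes, 3 were tested and none passed. BIRC2, which encodes the ubiquitin ligase cIAP1, had 888 ± 134 in vitro and 1080 ± 300.1 in vivo at its brightest probe set and a log2 fold change of -0.25 (95% interval -0.71 to 0.21). Its other 3 probe sets had -0.75, 0.03 and 0.21, and the first of these ran from 179 to 617 in vitro and from 261 to 1137 in vivo. BIRC6, a very large IAP that also acts as a ubiquitin-conjugating enzyme, had 400.3 ± 82.2 in vitro and 503 ± 110.4 in vivo and a log2 fold change of -0.32 (95% interval -0.78 to 0.15), and -0.35 at a second probe set. BIRC7, known as livin, ran from 17.3 to 109.0 in vitro and from 8.9 to 110.2 in vivo. In vitro replicate 4 and in vivo replicate 1 were below background, and the log2 fold change of 0.56 ran from 0.02 to 1.09 with an array left out. BIRC3, which encodes cIAP2, was too dim to be tested at its 3 probe sets, as was the BCL2 relative BCL2A1. The death receptors TNFRSF10A and TNFRSF10B, which bind the ligand TRAIL, had at most 56.1 on any array and were above background on at most 2 arrays of a group.

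**Figure D5:**
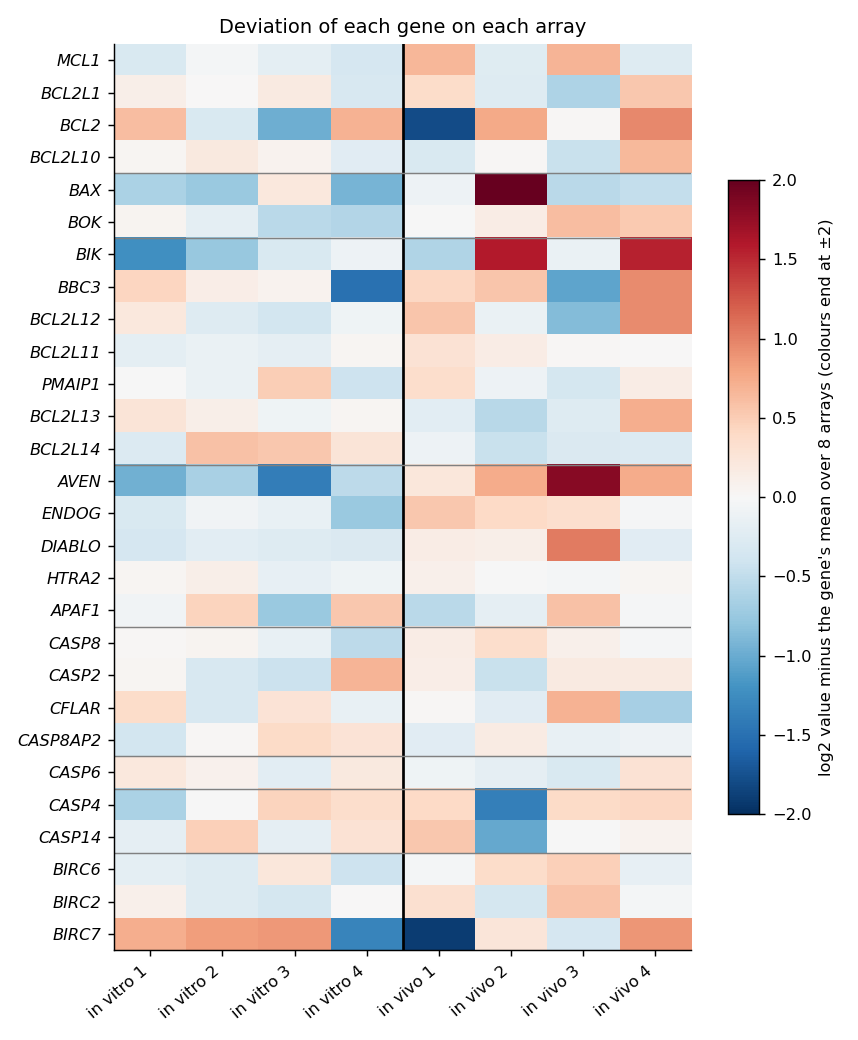
Deviation of each of the 28 tested genes (rows, grouped by role as in the fold change plot) from its mean over the 8 arrays on the log2 scale, in vitro left of the vertical line. AVEN is low on all in vitro arrays and high on all in vivo arrays, BAX is high on in vivo replicate 2, and dim genes such as BCL2 and BIRC7 vary within both groups.

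Among the members, the SD of log2 values was larger in vivo at 19 of 28 genes (67.9%), near the 69.4% of all tested named genes, with medians of 0.31 in vitro and 0.51 in vivo for the members and 0.28 in vitro and 0.39 in vivo for all genes. The single highest array was in vivo replicate 3 for 8 genes and in vivo replicate 4 for 8 genes, and in vitro replicate 1 for 0. The single lowest was in vitro replicate 4 for 8 genes, in vivo replicate 2 for 5 and in vitro replicate 2 for 0. These counts were not taken over all tested genes, so they are not read as a trait of the regulators. Of 12 genes with several tested probe sets, 6 had log2 fold changes of 1 sign at all of them. Of all 74 probe sets, 36 (48.6%) were above background on all 8 arrays and 7 (9.46%) on none, against 49.3% and 9.89% of probe sets with 1 named gene.

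Other genes of the pathway were taken from a list of 104 symbols of death ligands, adaptors, mitochondrial genes, inhibitors, caspase targets, p53 genes and kinases. Symbols were matched as written, without a search for aliases. Of these, 79 matched a gene on the array and 65 were tested. Of the 65 genes, 0 passed the limma adjusted threshold and 6 had an unadjusted p under 0.05 (9.23%), against 0.251% and 11.8% of all tested named genes. Their median log2 fold change was -0.07. ARMC10, a mitochondrial armadillo-repeat protein, had 46.8, 57.2, 76.0 and 85.9 in vitro, against 279.6, 104, 269 and 117 in vivo, all in vitro arrays below all in vivo arrays, with a log2 fold change of -1.32 (limma adjusted p = 0.205). OPA1, a fusion protein of the inner mitochondrial membrane, had 853, 585, 516 and 558 in vitro, against 231, 416, 128 and 445 in vivo, with no overlap in the opposite direction (log2 fold change 1.15, limma adjusted p = 0.258). Both passed with the EEF1A1 ratio as a covariate, at limma adjusted p-values of 0.0114 and 0.0149. That covariate was added after seeing the data, and it raised the calls over all probe sets from 38 to 292. With the beta-actin ratio as a covariate neither passed (limma adjusted p = 0.0885 and 0.113). DAPK1, a kinase that promotes cell death, had 368 ± 144 in vitro and 145 ± 58.9 in vivo (log2 fold change 1.30, limma adjusted p = 0.214). BAG1, a cochaperone that binds BCL2, had 162 ± 9.97 in vitro and 262 ± 79.8 in vivo without overlap of the groups, at a log2 fold change of -0.62. Of all tested named genes, 7.32% had groups that did not overlap, so such a gap is not particular to ARMC10, OPA1 and BAG1. The log2 fold change was -0.70 for DEDD2, which carries a death effector domain, 0.95 for STK3, a kinase that caspases cleave, 0.46 for CIAPIN1 and -0.98 for DAPK3, and none of these passed.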

How the data were processed

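Pools of 4 oocytes were extracted, amplified in 2 rounds and hybridised to a single-colour Affymetrix rhesus array, per the labels' protocols. The deposited intensity values are MAS5 signals, per the submitters' processing notes, with no version given, and the 2% trimmed mean of 150.0 on every array points to global scaling. MAS5 treats each probe set alone after background subtraction, so dim probe sets vary strongly. Amplification from the 3' end lowers signal far from the end. Detection calls were not used here. Values were taken as log2(signal + 8.2), the 25th percentile of signals other than AFFX controls, which understates changes of dim transcripts. The brighter 50% of probe sets, by mean log2 value over 8 arrays, were tested with limma 3.58.1 in R 4.3.3 (lmFit, eBayes with intensity trend, in vitro minus in vivo, Benjamini-Hochberg at 0.05 over 26383 probe sets). A gene is represented by its tested probe set with the highest mean. Values on all arrays are given for members with an unadjusted p under 0.05 or groups that do not overlap, and for 15 genes chosen for their role, of which 9 were tested. Up to 8 genes of the wider pathway list are named by smallest p. Members and lists were chosen with earlier results of these data known. Background uses 59 control probe sets for bacterial sequences and tags with signals of at most 52.7, which were taken as not spiked in. Symbols come from the platform annotation, and all 74 entries were found in RefSeq of T2T-MMU8v2.0 with 0 symbols changed. Same-numbered arrays did not deviate together (correlations from -0.05 to 0.02), and the main fit did not pair them. The labels do not name the animals, so whether equal numbers share an origin is not known. On simulated data, 16% of 50 probe sets changed 2-fold were recovered among 26383, 64% at 4-fold, 88% at 8-fold and 98% at 16-fold. Alternatives were other pseudocounts, filters, scalings, variance models, control-ratio covariates, a replicate block and each array left out. No sequences are shown. The number of arrays limits the precision.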

Additional observations from a re-analysis of the deposited data

Results flagged for a closer look

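Of 98 groups of 4 arrays (49 tested probe sets in 2 groups), 8 held an array far from the other 3 on the log2 scale by Dixon's test, or 8.16%. The cutoff of the test flags about 5% of groups of normally distributed values. The share over all tested probe sets was not computed, so no excess among the regulators is read from this count. In vivo replicate 2 held 4 of them. BAX had 1788 there at 1 probe set, against 171, 125 and 130.1 on the other in vivo arrays, and 5595 at a second, against 105, 71.3 and 63.7. CASP4 had 4.9 on in vivo replicate 2, against 36.3, 35.8 and 36.5, and CASP2 had 83.5, against 129, 134 and 134. On in vitro replicate 4, BCL2L10 had 11424, against 14821, 15173 and 14510 on the other in vitro arrays, and BIRC7 had 17.3, against 98.0, 106 and 109. On in vivo replicate 1, BIRC2 had 218 at its dimmest probe set, against 159, 150 and 151. On in vivo replicate 4, BCL2L1 had 76.4 at its dimmer tested probe set, against 62.4, 62.0 and 62.1.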

How the results depend on the processing

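The cause of the changes listed here was not tested. The 38 calls over all probe sets became 10 without the intensity trend, 88 with array weights, 58 with the beta-actin 3' to 5' ratio as a covariate (55.2% higher in vitro, against 71.1%) and 292 with that of EEF1A1 (41.8% higher), an alternative chosen after seeing the data. With an array left out they ranged from 18 to 97, the highest without in vivo replicate 4 and the lowest without in vitro replicate 1. Leaving out in vivo replicate 1 gave 71, and leaving out in vitro replicate 2 or 3 gave 21. The 1 called probe set and the 1 called gene among apoptosis regulators, AVEN, became 0 without the intensity trend and ranged from 0 to 1 with an array left out, 0 in 5 of 8 fits. The median log2 fold change of the regulators was -0.25 among the brightest 25% of probe sets, where fewer regulators were left. It was 0.03 after median centring, which turned its sign, and between -0.16 and -0.012 with an array left out. Centring moves every log2 fold change by the same amount, for example that of AVEN from -1.76 to -1.69. Medians over all tested genes in these settings are not given here, so no trait of the regulators is read from them. The 0 calls among other pathway genes became 2, ARMC10 and OPA1, with the EEF1A1 ratio. The replicate block gave 43 calls over all probe sets and kept AVEN at a limma adjusted p of 0.0416. It changed no call among the regulators. Low signal kept 10 of the 38 genes out of the test.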
